A study of Mus musculus with 64 samples.

Results

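The comparison described here is the response of untreated wild-type natural killer (NK) cells to an antibody against NK1.1. It sets 4 libraries of stimulated cells, titled as untreated WT cells given anti-NK1.1, against 4 libraries of unstimulated cells of the same genotype. These are 8 of the 64 libraries in the study, chosen by their titles. Spleen NK cells came from C57BL/6J mice and were grown for 5 days with small amounts of IL-2 and of IL15:IL15Ra, the complex of IL-15 with a receptor chain. Both groups were then kept in RPMI medium with IL-2. The unstimulated cells then spent 5 hours without treatment. The stimulated cells spent 1 hour without treatment and the last 4 hours with anti-NK1.1. The same contrast in untreated Ptger2-/-Ptger4fl/fl cells, which lack the prostaglandin receptor EP2 (EP2KO, 4 libraries per state), and in GzmbCrePtger2-/-Ptger4fl/fl cells, in which a Cre named for Gzmb also acts on the floxed EP4 gene (DKO, 3 per state), served for the test of genotype differences. All cells were cytokine-grown, so the unstimulated group is a cultured and not a freshly isolated resting population. The labels give no age. Nothing in them ties a replicate to its own mouse or culture, so p-values measure only the spread between samples, which may be technical.

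NK cells are innate lymphocytes that kill target cells and secrete cytokines. NK1.1 is an activating lectin-like receptor encoded by Klrb1c. It has no ITAM signalling motif of its own and pairs with the FcR gamma chain (Fcer1g), whose ITAM motifs recruit the kinases Syk and Zap70. The signal runs through the adaptors Lat and Slp-76 (Lcp2) to phospholipase C gamma. From there calcium activates NFAT, diacylglycerol leads to NF-kB, and Ras activates the MAP kinases that induce EGR and AP-1 factors. In mouse NK cells this pathway is known for granule release and for transcription of Ifng and of chemokine genes.

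Expression was measured by 3' mRNA sequencing, so each count is a tag at the end of a transcript and values are given as CPM, the counts divided by the library total after edgeR's TMM scaling and multiplied by 1000000. Library totals were 1352953, 1214363, 1026568 and 1195292 counts in unstimulated replicates 1 to 4 and 1339949, 1400040, 1231401 and 1465590 counts in stimulated replicates 1 to 4. At these depths 1 count is close to 1 CPM. On the first principal component, which held 53.7% of the variance, stimulated and unstimulated libraries lay apart. On the second, with 18.5%, the stimulated libraries fell into a pair of replicates 1 and 2 and a pair of replicates 3 and 4. The same pairs differed in composition. Chemokine transcripts took 3.25, 2.73, 4.70 and 5.28 percent of the counts in stimulated replicates 1 to 4, and cytosolic ribosomal protein transcripts took 9.11, 6.94, 11.3 and 12.3 percent. For many results that differ between these pairs, values without a pair are also given. All 22 NK identity genes were tested. Of these 6 rose and 11 fell (median −0.35), with 3 higher without stimulated replicate 4. Their summed level was 19902 to 21834 CPM unstimulated and 21844 to 40887 CPM stimulated. Without the chemokine gene Xcl1, which is in that list, the sum was 16889.6 to 19339.6 CPM unstimulated and 11738 to 21419 CPM stimulated. The T cell list summed to 966 to 1072 CPM unstimulated and 734 to 1266 CPM stimulated. Its members Cd3e, Cd4 and Cd8a stayed at or below 2.34 CPM in each of the 8 libraries, so other members held most of that sum. Thy1, Trbc1 and Trbc2 had the highest mean level among the members not called. Of 11 tested T cell list members 1 rose, Trac (1.61 ± 0.21), and 3 fell, Trgc1 (−2.91 ± 0.48), Cd28 (−0.85 ± 0.18) and Lat (−0.89 ± 0.33). Without stimulated replicate 3 the change of Trgc1 was −3.54. The call of Lat was lost without stimulated replicate 1 or 2 or unstimulated replicate 2 or 4. B cell markers summed to 89.3 to 113 CPM unstimulated and 54.8 to 88.7 CPM stimulated, macrophage and dendritic cell markers to 130.4 to 272 CPM unstimulated and 145 to 243 CPM stimulated, and neutrophil and mast cell markers to 351 to 1101 CPM unstimulated and 343 to 1026 CPM stimulated. Erythroid and platelet markers summed to 639.6 to 981 CPM unstimulated and 436 to 662 CPM stimulated, and their share of counts was lower in every stimulated library than in any unstimulated one. Most of that sum was Car2, at 961, 618, 709.8 and 849.8 CPM and then 570.5, 405, 503 and 645 CPM (−0.56 ± 0.18), the single called gene of 5 tested. Its call was lost without stimulated replicate 2 or unstimulated replicate 1. No count was found for the B cell genes Pax5 and Blk, the macrophage genes C1qa and C1qc or the neutrophil gene Ly6g, and the part of other cells in any result was not tested. In bulk RNA, more cells of a type and more RNA per cell cannot be told apart.

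After 4 hours of anti-NK1.1, 4508 of the 10723 genes tested changed at an adjusted p under 0.05 (edgeR's quasi-likelihood test with Benjamini-Hochberg adjustment), which is 42.0%. Of these, 2465 rose (23.0% of genes tested) and 2043 fell (19.1%). With library size as the only scaling the split was 1956 higher and 2708 lower, and the median log2 difference of all genes moved from 0.01 to −0.12. In 3479 genes (32.4%) all 4 stimulated libraries lay on one side of all 4 unstimulated ones. A change of at least 2-fold was called for 1102 higher genes (10.3%) and 840 lower genes (7.83%), and of at least 4-fold for 233 and 57. Counts per gene list are read against the shares of 23.0% higher and 19.1% lower and against the median log2 difference of 0.01 over all genes. Changes are given as log2 values ± SE of the fit. The genes that rose had a median transcript length of 1628 bases, those that fell 1090.5 and those not called 1308. In the shortest 25% of genes 17.7% rose and 21.8% fell, and in the longest 25% 29.8% and 12.9%. The part of transcript length in these results was not tested.

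**Figure D1:**
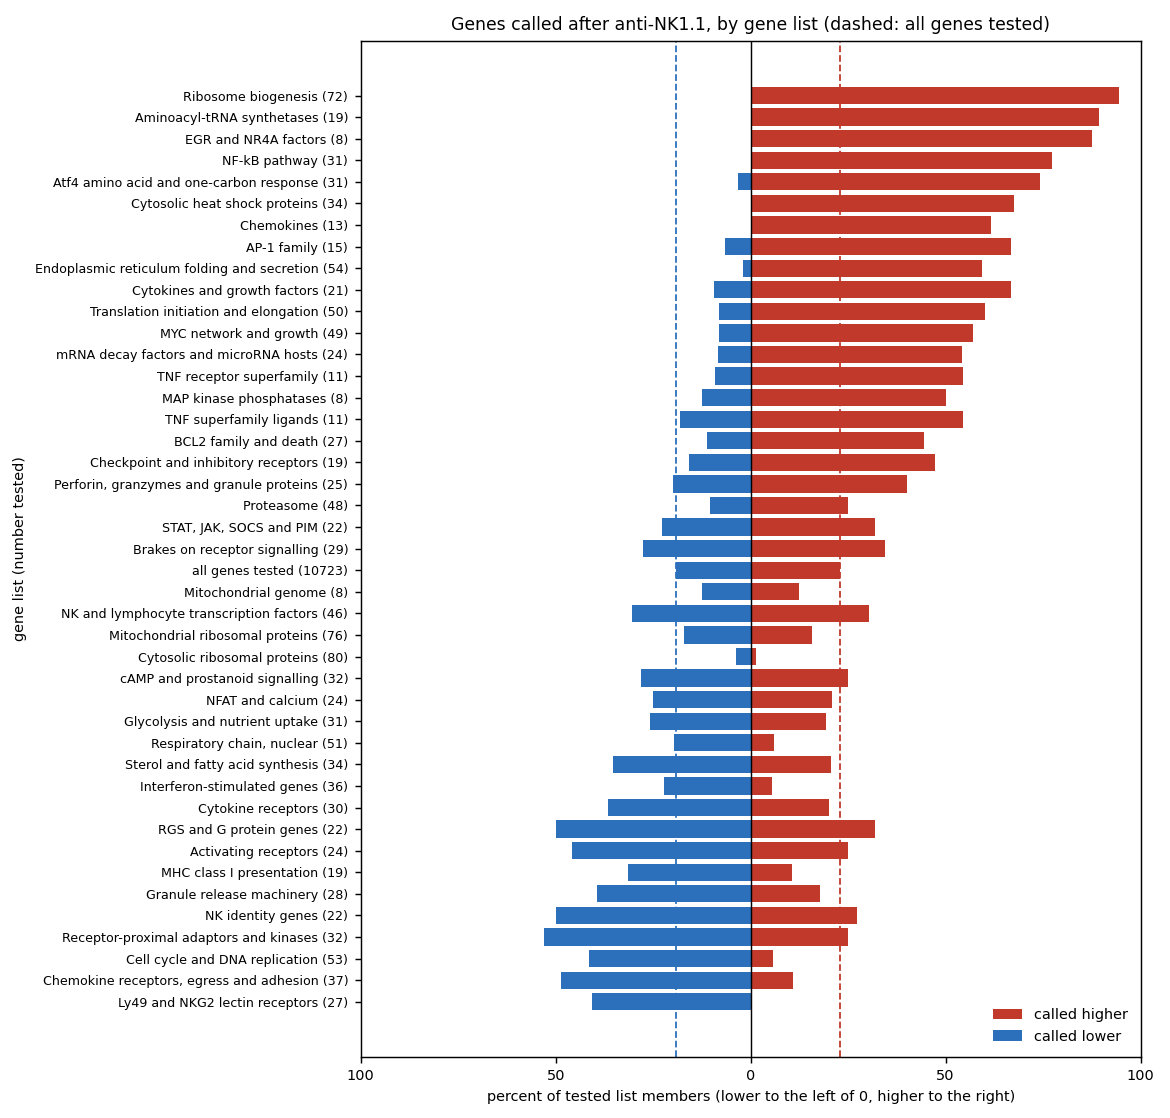
Percent of the tested members of each gene list that were called higher (right) or lower (left) after anti-NK1.1 in untreated WT cells, with the number tested in brackets. Dashed lines mark the shares over all 10723 genes, 23.0% higher and 19.1% lower. Ribosome biogenesis and tRNA synthetase genes lie far to the right and the cell cycle, egress and adhesion lists to the left.

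The receptor that was crosslinked fell at the RNA level. Klrb1c (chromosome 6, 128778485 to 128789215, GRCm38) stood at 455, 441, 449.7 and 489 CPM in unstimulated libraries and at 228, 189, 200.3 and 194 CPM in the stimulated ones, a change of −1.18 ± 0.13 (adjusted p = 8.24e-11). No stimulated library reached the lowest unstimulated one. Of its relatives, Klrb1b, which encodes an inhibitory receptor, fell (−1.71 ± 0.15) and Klrb1a (−1.23 ± 0.16). Klrb1f, with 147, 149.9, 159 and 184 CPM before and 223, 181, 126 and 128 CPM after, was not called (0.05 ± 0.16). Cd247, the CD3 zeta chain that also carries ITAM motifs, went from 56.3 ± 4.71 (SD, n = 4) to 20.7 ± 5.08 CPM (−1.44 ± 0.21). Fcgr3, the Fc receptor CD16, stood at 265, 197, 212 and 245 CPM before and 48.7, 35.96, 59.5 and 52.2 CPM after stimulation (−2.24 ± 0.26). For Fcer1g, the partner chain of NK1.1, the stimulated values were 664, 656, 1241 and 1307 CPM against 1279, 1385, 1238 and 1361 CPM unstimulated (−0.45 ± 0.18). Stimulated replicates 1 and 2 were below every unstimulated library and replicates 3 and 4 were within their range. Without replicates 1 and 2 the change was −0.06, adjusted p = 0.852. The call was also lost without stimulated replicate 1 or 2 or unstimulated replicate 1, 2 or 4.

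Of the 24 tested activating receptors, 6 rose and 11 fell, with a median of −0.32. Among the risers, Crtam, an adhesion receptor of activated lymphocytes, went from 193, 183, 171 and 174 CPM to 1319.9, 1057, 1784 and 1809.9 CPM (3.05 ± 0.16), and Cd69, the early activation lectin, from 54.04 ± 6.69 to 229 ± 22.9 CPM (2.08 ± 0.14). Slamf7, a self-ligand receptor of the SLAM family, rose by 1.62 ± 0.15. Tnfrsf9, the costimulator 4-1BB, stood at 544, 479, 484 and 594 CPM unstimulated and 865, 657, 1849 and 2293 CPM stimulated. All 4 stimulated values were higher, with replicates 3 and 4 well above replicates 1 and 2. Its change was 1.43 ± 0.28, and without stimulated replicates 3 and 4 it was 0.53, adjusted p = 0.134. Ncr1, the receptor NKp46, fell (−0.82 ± 0.15).

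Among the 32 tested adaptors and kinases next to the receptor, 8 rose and 17 fell. Without stimulated replicate 2, 11 fell, and 10 when the 8 libraries were fitted alone. Lcp2, which encodes the scaffold Slp-76, stood at 133, 116, 151 and 141 CPM and then 315, 326, 351 and 405 CPM (1.37 ± 0.12). Syk fell (−0.97 ± 0.20), as did Lyn (−0.98 ± 0.17) and the PI3-kinase subunit genes Pik3r1 (−0.76 ± 0.13) and Pik3cd (−0.74 ± 0.15). So within 1 list the upstream kinase and the phosphoinositide kinase genes were lower while the scaffold gene was higher.

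Genes that restrain receptor signalling moved both ways, 10 of 29 higher and 8 lower. Ubash3b, a phosphatase that acts on Syk-family kinases, rose from 102 ± 10.03 to 251.6 ± 25.6 CPM (1.30 ± 0.14). Spry2 and Spred1, which restrain Ras, rose by 0.99 ± 0.14 and 1.13 ± 0.23, and Sla, an adaptor for receptor degradation, by 1.42 ± 0.18. Lower were Inpp5d, the lipid phosphatase SHIP-1 (−0.71 ± 0.15), Dgka, which removes diacylglycerol (−0.93 ± 0.20) and the adaptor gene Dok2 (−1.60 ± 0.18). Of 8 tested MAP kinase phosphatases, 4 rose, led by Dusp2 (1.98 ± 0.14) and Dusp6 (1.05 ± 0.19), whose products act on ERK, and 1 fell, Dusp7 (−1.05 ± 0.27).

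**Figure D2:**
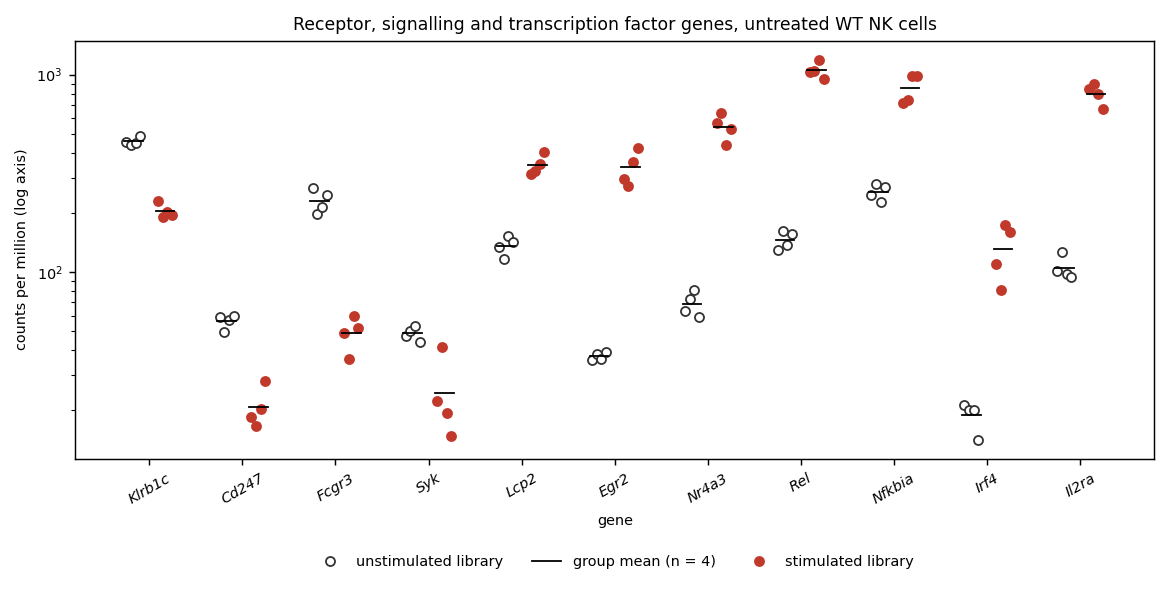
CPM of 11 genes in each library on a log axis, with unstimulated libraries as open circles, stimulated libraries as filled circles and group means as bars. Klrb1c, Cd247, Fcgr3 and Syk are lower in all 4 stimulated libraries, and Lcp2, Egr2, Nr4a3, Rel, Nfkbia, Irf4 and Il2ra are higher.

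Transcription factors that receptor signals induce early were high at 4 hours. Of 8 tested EGR and NR4A genes, 7 rose and none fell, with a median of 2.38. Egr2, a zinc finger factor induced by antigen receptors, stood at 35.6, 38.3, 36.2 and 39.04 CPM unstimulated and 297, 274, 359 and 426 CPM stimulated (3.18 ± 0.16). The orphan nuclear receptor gene Nr4a3 went from 63.2, 72.6, 80.98 and 58.98 CPM to 568, 639, 439 and 533 CPM (2.99 ± 0.16), and Nr4a2 from 69.7 ± 12.3 to 483 ± 21.2 CPM (2.79 ± 0.16). Nr4a1 (Nur77), often read as a marker of receptor signalling, went from 37.1, 40.7, 37.2 and 41.5 CPM to 133, 125, 216 and 237 CPM (2.18 ± 0.21). In each of these 4 genes every stimulated library lay above every unstimulated one. In the AP-1 family 10 of 15 rose. Atf3 led among the well-expressed members (2.91, 11.96, 11.4 and 4.98 CPM against 56.4, 61.9, 89.6 and 107 CPM, 3.34 ± 0.33), followed by Fosl1 (2.54 ± 0.32) and Junb (1.39 ± 0.23). Fosl1 rose by 1.92 and Junb by 0.61 when stimulated replicates 3 and 4 were left out. Fosb rose by 3.65 ± 0.58 from a level near the detection limit (2.18, 1.60, 0 and 0 CPM), and by 4.38 without unstimulated replicate 1. Jun, whose protein is the common partner of this family, stood at 26.2, 31.9, 30.5 and 38.2 CPM and 25.1, 58.97, 45.7 and 29.6 CPM and was not called (0.33 ± 0.23).

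The NF-kB list moved in 1 direction, with 24 of 31 tested members higher and none lower (median 0.94). Without stimulated replicates 1 and 2, 20 were higher and 1 lower. Rel, the c-Rel subunit (chromosome 11, 23736847 to 23770970, GRCm38), stood at 129, 162, 136 and 156 CPM unstimulated and at 1028, 1049, 1191 and 945 CPM stimulated (2.85 ± 0.14, adjusted p = 4.22e-25). The 4 stimulated values lay close together and far above the unstimulated ones. Nfkb1 rose by 1.88 ± 0.13, Nfkb2 by 1.61 ± 0.15 and Relb by 1.06 ± 0.14. Rela, the subunit usually paired with Nfkb1, had 61.8, 56.6, 62.9 and 72.3 CPM before and 53.3, 60.4, 75.00 and 66.97 CPM after and was not called (0.01 ± 0.16). Inhibitors of the pathway were among the risers. Nfkbia, which encodes IkB alpha, rose from 244, 278, 227 and 269 CPM to 714, 744, 981 and 988 CPM (1.75 ± 0.13), Nfkbid by 2.58 ± 0.18, Nfkbiz by 2.04 ± 0.21 and the deubiquitinase gene Tnfaip3 (A20) by 1.08 ± 0.15. Cyld (−0.18 ± 0.16) and Otulin (0.19 ± 0.11), which encode deubiquitinases that also restrain NF-kB, were not called, but Cyld was called lower without stimulated replicates 1 and 2 (−0.47, adjusted p = 0.0422).

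The promoters of Rel and Nfkbia show what an NF-kB site looks like in this list. The kappaB motif, searched on both strands of the window from 250 bases before to 50 bases after each RefSeq start (GRCm38.p6), was found in 8.18% of all 27025 promoters. It was found in 10.2% of the promoters of genes that rose, 14.4% of those that rose at least 4-fold, 9.86% of those that fell and 9.88% of those not called. In the NF-kB list 10 of 26 matched members held one. These shares are descriptions, since a match is not a bound site. The 100 bases upstream of each start that hold the match, written 5′ to 3′ on the strand of the gene with the motif in capitals, are as follows. In Rel a pair of matches overlaps by all but 1 base, and in Nfkbia the match ends 20 bases before the start.
Rel, chr11:23771006-23771105, minus strand: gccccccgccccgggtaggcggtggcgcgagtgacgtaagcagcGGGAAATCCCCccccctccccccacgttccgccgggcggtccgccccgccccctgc
Nfkbia, chr12:55492648-55492747, minus strand: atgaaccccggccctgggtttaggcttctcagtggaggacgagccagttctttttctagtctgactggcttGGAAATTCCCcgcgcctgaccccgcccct

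Of 24 tested NFAT and calcium genes 5 rose and 6 fell. Orai1, the pore of the store-operated calcium channel, rose from 49.4, 57.4, 60.98 and 44.03 CPM to 103, 91.3, 171 and 192 CPM (1.39 ± 0.17), and Nfatc1 by 0.70 ± 0.13. Orai2 (−1.02 ± 0.28) and the calmodulin genes Calm2 (−0.63 ± 0.11) and Calm3 (−0.61 ± 0.16) fell. Without stimulated replicates 3 and 4, 3 members fell.

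Lineage and state factors of lymphocytes split evenly, 14 higher and 14 lower of 46. Irf4, whose level follows receptor signal strength in lymphocytes, went from 21.1, 19.9, 20.01 and 14.1 CPM to 109.7, 80.6, 172 and 159 CPM (2.78 ± 0.24). Irf8, which NK cells need for proliferation in viral infection, went from 496, 415, 449 and 487 CPM to 1181, 823, 1565 and 1391 CPM (1.42 ± 0.16). Kdm6b, a histone H3K27 demethylase, rose by 2.96 ± 0.16, Zeb2, a factor of NK maturation, by 2.39 ± 0.19 and Bhlhe40 by 1.12 ± 0.14. On the lower side was Tcf7, which encodes TCF-1, a factor of less differentiated lymphocytes, at 227, 173, 211 and 218 CPM and then 104, 89.9, 75.00 and 72.4 CPM (−1.27 ± 0.15). Its relative Lef1 fell (−1.20 ± 0.21), Rora (−1.37 ± 0.21) and Klf3 (−1.16 ± 0.23). The change of Klf3 was −1.85 without stimulated replicates 1 and 2. The T-box factor that drives Ifng, Tbx21, rose by 0.64 ± 0.20 with overlapping groups (78.5, 81.3, 77.2 and 68.95 CPM against 99.01, 79.8, 141 and 160.4 CPM), and without stimulated replicates 3 and 4 the change was 0.22, adjusted p = 0.453. The call was also lost without replicate 4 alone.

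Genes of secreted factors were among the large rises. Chemokine transcripts as a whole took 1.07, 1.13, 1.07 and 0.998 percent of all counts in the unstimulated libraries and 3.25, 2.73, 4.70 and 5.28 percent in the stimulated ones. The groups did not overlap, which gives an exact permutation p of 0.0286, the smallest that 4 against 4 libraries allow and 0.075 after adjustment over 21 library measures. Of 13 tested chemokine genes 8 rose and none was called lower. Xcl1 (lymphotactin), which attracts cross-presenting dendritic cells (chromosome 1, 164931644 to 164935527, GRCm38), stood at 2679, 3012, 2811 and 2495 CPM and then at 11950.3, 10107, 16382 and 19468 CPM (2.40 ± 0.17). Ccl3 and Ccl4, the inflammatory chemokines MIP-1 alpha and beta, went from 1173, 1196, 1109 and 1017 to 5206, 3766, 9189.5 and 11494 CPM (2.72 ± 0.25) and from 2313, 2435, 2228 and 1999.6 to 8559, 7545, 15053 and 16484 CPM (2.41 ± 0.20). Ccl1, a ligand of Ccr8, went from 928, 955, 914 and 679 to 4485, 3608, 8239 and 8665 CPM (2.85 ± 0.21), and Ccl9 from 65.4, 78.2, 65.7 and 49.8 to 539, 407, 729 and 835 CPM (3.27 ± 0.21). In each of these 5 genes stimulated replicates 3 and 4 held the highest values, and replicate 2, the lowest of the stimulated ones, was still above every unstimulated value. Without replicates 3 and 4 the rise was 1.997 for Ccl3 and 2.22 for Ccl1. Ccl5 (RANTES), which NK cells hold as ready RNA, did not follow: it stood at 3278, 3142, 3300.3 and 3611 CPM and then 2331, 1691, 3160.1 and 3239.7 CPM and was not called (−0.36 ± 0.20). With library size as the only scaling it was called lower (−0.50, adjusted p = 0.016), as it was without stimulated replicates 3 and 4 (−0.73, adjusted p = 0.0137). A replicate block over all libraries also called it lower, with values given in the section on processing. Cxcl9, a ligand of Cxcr3, rose by 3.28 ± 0.91, but its stimulated values were 7.62, 98.5, 17.4 and 12.5 CPM, and without stimulated replicate 2 the change was 1.77, adjusted p = 0.177.

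Of 21 tested cytokine and growth factor genes 14 rose and 2 fell (median 1.96). Ifng, which encodes interferon-gamma (chromosome 10, 118441046 to 118445892, GRCm38), stood at 221, 242, 211 and 196 CPM unstimulated and at 1574, 1174, 2158 and 2645 CPM stimulated (3.12 ± 0.20, adjusted p = 9.52e-21). Csf2, which encodes GM-CSF, went from 8.72, 10.4, 8.57 and 11.6 CPM to 95.97, 91.3, 94.2 and 143 CPM (3.42 ± 0.32). Il2, the growth factor that was also present in the medium, went from 3.63, 4.79, 5.72 and 4.15 CPM to 33.5, 23.7, 84.1 and 81.8 CPM (3.58 ± 0.42). Here stimulated replicates 3 and 4 stood well above replicates 1 and 2, and without them the rise was 2.63. Tnf went from 21.1, 19.1, 20.96 and 29.9 CPM to 105, 122, 197 and 200.1 CPM (2.77 ± 0.23). Growth factors for other cells rose too: Pdgfa from 60.5 ± 11.7 to 444 ± 49.4 CPM (2.88 ± 0.18), Hbegf by 2.86 ± 0.26 and Spp1 (osteopontin) from 1123, 1278, 1250 and 1374 CPM to 1911, 1847, 4035 and 5139 CPM (1.36 ± 0.24). For Spp1 the change without stimulated replicates 3 and 4 was 0.58, adjusted p = 0.0505. Flt3l, the dendritic cell growth factor that NK cells make at rest, was 1 of the 2 that fell (39.97, 55.03, 54.3 and 55.7 CPM against 12.9, 12.2, 12.8 and 17.9 CPM, −1.86 ± 0.22), and Il16 was the other (−1.45 ± 0.16).

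**Figure D3:**
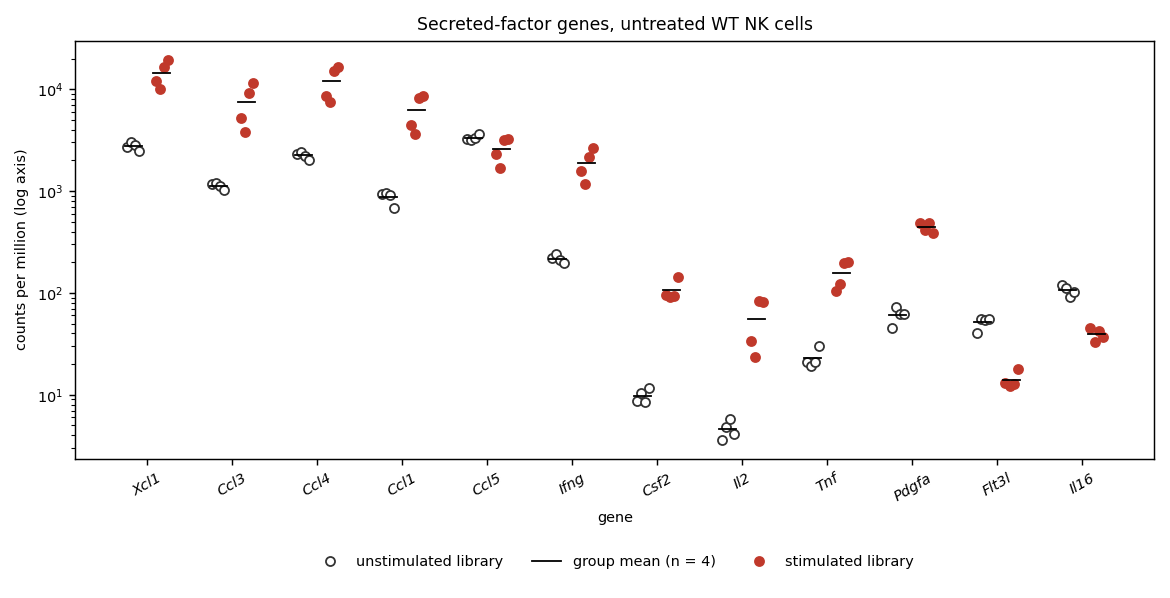
CPM of 12 secreted-factor genes in each library on a log axis, drawn as in the plot of signalling genes. In Xcl1, Ccl3, Ccl4, Ccl1, Ifng, Csf2, Il2, Tnf and Pdgfa the stimulated libraries lie above the unstimulated ones, Ccl5 overlaps, and Flt3l and Il16 lie below.

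Ligands of the TNF family were mixed, 6 of 11 higher and 2 lower. Tnfsf14 (LIGHT) went from 17.4, 18.3, 14.3 and 19.1 CPM to 137, 136, 158 and 159 CPM (3.08 ± 0.21), Tnfsf8 (CD30 ligand) from 69.2 ± 7.75 to 323 ± 43.6 CPM (2.22 ± 0.17) and Lta by 1.96 ± 0.34. The death ligand gene Fasl went the other way, from 150.4, 124, 133 and 144 CPM to 77.7, 65.4, 93.3 and 102 CPM (−0.71 ± 0.19), with −0.51, adjusted p = 0.0919 without stimulated replicates 1 and 2. Tnfsf10 (TRAIL) was not called (0.32 ± 0.20). Of the receptors, 6 of 11 rose, among them Tnfrsf21, which encodes death receptor DR6 (1.51 ± 0.29), and the death receptor gene Fas (1.35 ± 0.39). Without stimulated replicates 3 and 4, 3 rose.

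The cytotoxic granule genes did not move as a block. Of 25 tested granule proteins 10 rose and 5 fell. Without stimulated replicate 4, 6 rose, and without replicates 3 and 4, 5. Prf1, which encodes the pore-forming protein perforin, stood at 349.5, 338, 337 and 385 CPM and then 951, 805, 1048 and 1573 CPM (1.63 ± 0.18), with no overlap. Gzmb went from 2359, 1961, 2012 and 2502 CPM to 2831, 2104, 4052 and 5181 CPM (0.68 ± 0.23), with overlapping groups, and without stimulated replicates 3 and 4 the change was 0.16, adjusted p = 0.644. The call was also lost without replicate 4 alone. Gzma, the tryptase-like granzyme, fell in all 4 libraries, from 3577, 2919, 3177 and 3807 CPM to 1803, 1091, 1898 and 2117 CPM (−0.96 ± 0.21). Inhibitors that guard the killer cell rose together with perforin: Serpinb9, an inhibitor of granzyme B, from 355, 383, 381 and 410.4 CPM to 987, 785, 1036 and 1208 CPM (1.39 ± 0.14), and Serpinb6b by 1.90 ± 0.19. Lysosomal protease genes were lower, with Ctsd at −1.11 ± 0.15, Ctsc, which activates progranzymes, at −0.71 ± 0.14 and Ctsb at −0.78 ± 0.16. In the machinery of granule release 5 of 28 rose and 11 fell. The docking factor gene Rab27a (0.64 ± 0.14) and the syntaxin gene Stx11 (1.14 ± 0.21) rose, and actin regulators such as Rac2 (676 ± 54.99 against 339 ± 70.5 CPM), Coro1a (−0.51 ± 0.10) and Wipf1 (−0.70 ± 0.13) fell.

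Cytokine receptor genes moved both ways. Il2ra, the high-affinity chain of the IL-2 receptor (chromosome 2, 11642807 to 11693193, GRCm38), went from 101.0, 127, 97.2 and 93.9 CPM to 844, 893, 800.3 and 672 CPM (2.94 ± 0.20). Il21r rose by 1.88 ± 0.16 and Il15ra by 1.15 ± 0.34, while the shared beta chain gene Il2rb fell from 835 ± 26.6 to 590.2 ± 72.3 CPM (−0.50 ± 0.11). Ifngr1, the ligand-binding chain of the interferon-gamma receptor (chromosome 10, 19591949 to 19610229, GRCm38), fell from 1148, 1063, 1202 and 1216 CPM to 287, 194, 217 and 215 CPM (−2.34 ± 0.15, adjusted p = 1.33e-20). The gene of the cytokine thus rose and that of its receptor fell in the same libraries. Il10rb (−1.47 ± 0.21), Il10ra (−0.85 ± 0.18), Tgfbr2 (−0.67 ± 0.13), Ifnar2 (−1.25 ± 0.19) and Kit (−1.19 ± 0.17) fell too. Over the whole list, 6 of 30 rose and 11 fell. The number that rose depended on the fit. It was 7 in the 8 libraries alone, 8 there with a replicate block and 9 with that block over all libraries. With 1 library left out it was 5 or 6. In the JAK-STAT list, 7 of 22 rose and 5 fell. Risers were the kinase genes Pim1 (131, 154, 155 and 149.5 CPM against 676, 642, 835 and 714 CPM, 2.28 ± 0.12) and Jak2 (2.17 ± 0.17), the STAT5 target Cish (1.93 ± 0.21) and Stat5a (1.35 ± 0.18). Stat4, which transmits IL-12, fell from 315, 388, 400.1 and 312 CPM to 185, 209, 139.9 and 138 CPM (−1.07 ± 0.16), and Jak1 (−0.47 ± 0.12). Leaving out stimulated replicates 1 and 2 left 3 called lower.

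Homing and adhesion genes leaned lower, 18 of 37 against 4 higher, and at least 16 were lower under every alternative run. Ccr2, the receptor for monocyte chemoattractants, fell from 1006, 949, 1124 and 915 CPM to 498, 369, 224 and 257 CPM (−1.56 ± 0.15). Cxcr3, the receptor that guides lymphocytes into inflamed tissue, fell from 34.2, 33.5, 35.3 and 41.5 CPM to 6.09, 5.75, 10.98 and 7.01 CPM (−2.29 ± 0.26). Selplg, the selectin ligand PSGL-1, fell (−1.82 ± 0.20), the sphingosine phosphate receptor gene S1pr4 (−1.90 ± 0.20) and the oxysterol receptor gene Gpr183 (−1.36 ± 0.18). Besides Cd69, whose product blocks exit from tissue, adhesion molecules rose, Cd44 (1.62 ± 0.15) and the integrin gene Itgav (1.89 ± 0.18) among them.

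Lectin receptors of the NK gene complex had no riser, with 11 of 27 lower and 16 not called. The count was 17 with library size as the only scaling. Klrd1, the CD94 chain shared by the NKG2 receptors, fell (−0.75 ± 0.15), Klre1 (−0.74 ± 0.14) and the Ly49 gene Klra9 (−0.75 ± 0.15). Ly49 genes are near-identical copies, so counts between them are uncertain. The share of counts of the whole lectin receptor list was 0.622, 0.651, 0.654 and 0.659 percent unstimulated and 0.429, 0.427, 0.411 and 0.399 percent stimulated. Of the checkpoint and other inhibitory receptors 9 of 19 rose and 3 fell. Without unstimulated replicate 1, 1 was lower. Lilrb4a and Lilr4b, immunoglobulin-like inhibitory receptors known as gp49, rose by 3.08 ± 0.49 and 2.34 ± 0.17. They are close paralogs whose counts may be shared, and without stimulated replicates 1 and 2 the rise of Lilrb4a was 1.97. Havcr2 (TIM-3) went from 30.5, 22.3, 34.3 and 39.04 CPM to 114, 115, 166 and 137 CPM (2.08 ± 0.20), and Cd274 (PD-L1) from 11.98 ± 2.88 to 42.9 ± 9.98 CPM (1.84 ± 0.29). Lag3 stood at 8.72, 7.98, 17.1 and 4.98 CPM and 19.8, 15.1, 10.1 and 12.5 CPM and was not called. Cd96 fell (−0.71 ± 0.14).

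Genes of cell growth rose in large numbers. Myc, the transcription factor that drives ribosome and nucleotide synthesis, went from 52.3, 60.6, 43.8 and 55.7 CPM to 133, 118, 162 and 163 CPM (1.43 ± 0.19). Its antagonists, which compete for the partner Max, fell: Mxd4 from 309, 239, 289 and 258 CPM to 99.01, 62.6, 52.1 and 56.1 CPM (−2.01 ± 0.15), Mxi1 (−1.74 ± 0.26), Mxd3 (−2.10 ± 0.39) and Mxd1 (−0.93 ± 0.22). The change of Mxi1 was −2.44 without stimulated replicates 1 and 2. These 4 were the only members of the 49-gene MYC and growth list called lower, against 28 called higher. Without stimulated replicates 3 and 4, 7 were lower. Odc1, the first enzyme of polyamine synthesis, rose from 15.99, 24.7, 22.9 and 24.9 CPM to 139, 153, 93.3 and 104 CPM (2.48 ± 0.21), Tfrc (transferrin receptor) by 2.46 ± 0.18 and Mat2a, which makes the methyl donor, by 2.03 ± 0.14.

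**Figure D4:**
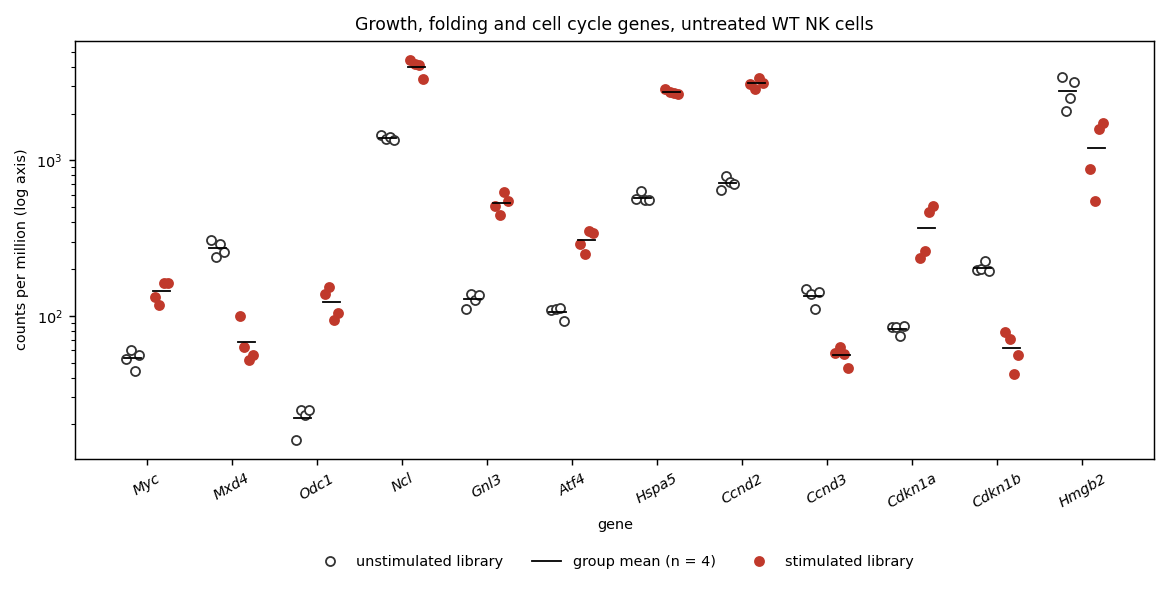
CPM of 12 genes of growth, protein folding and cell cycle in each library on a log axis, drawn as in the plot of signalling genes. Myc, Ncl, Odc1, Gnl3, Hspa5, Atf4, Ccnd2 and Cdkn1a are higher in all 4 stimulated libraries, and Mxd4, Ccnd3, Cdkn1b and Hmgb2 are lower.

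Ribosome biogenesis was nearly uniform, with 68 of 72 tested genes higher, none lower and a median of 1.47. The count stayed between 62 and 70 under the alternatives run. The list took 0.496, 0.552, 0.482 and 0.518 percent of counts unstimulated and 1.33, 1.18, 1.29 and 1.24 percent stimulated. Ncl (nucleolin) rose from 1447, 1374, 1402 and 1350.0 CPM to 4437, 4143, 4116 and 3354 CPM (1.53 ± 0.15), the helicase gene Ddx21 by 1.87 ± 0.12 and the nucleolar GTPase gene Gnl3 by 2.06 ± 0.14. The E-box CACGTG, the site of Myc and Max, was found in 13.96% of the promoters of genes that rose, 9.31% of those that fell, 9.86% of those not called and 7.24% of all promoters, both strands counted. Of the ribosome biogenesis genes 12 of 63 matched held one.

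The ribosomal proteins themselves did not follow. Of 80 cytosolic ribosomal protein genes 1 was higher (Rpl5, 0.51 ± 0.11), 3 were lower and 76 were not called. Rpl17 (−0.55 ± 0.22) and Rpl26 (−0.47 ± 0.20) were among those lower. The median of the list was −0.23, with 71 members below 0 and 9 above. The count of lower genes depended on the fit and on which libraries were kept. Without stimulated replicates 1 and 2 it was 0, without replicates 3 and 4 it was 58, and with library size as the only scaling 45. With a replicate block it was 45 over all libraries and 12 in the 8 libraries alone. Leaving out single stimulated replicates 1 to 4 gave 0, 0, 9 and 27, and leaving out unstimulated replicates 1 to 4 gave 0, 5, 2 and 0. Their share of counts was 14.3, 11.96, 12.6 and 14.1 percent unstimulated and 9.11, 6.94, 11.3 and 12.3 percent stimulated. So the pair of stimulated replicates 1 and 2 was low and the pair of replicates 3 and 4 close to the unstimulated range. The same pair was low in the level of short against long transcripts. The mean log2(CPM + 1) of the shortest 25% of genes less that of the longest 25% was 0.820, 0.602, 0.604 and 0.821 unstimulated and 0.272, 0.0603, 0.616 and 0.742 stimulated. Ribosomal protein transcripts are short, with a median of 628 bases, as are those of the nuclear respiratory chain genes, with 608, and the part of this trait in either count was not tested.

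**Figure D5:**
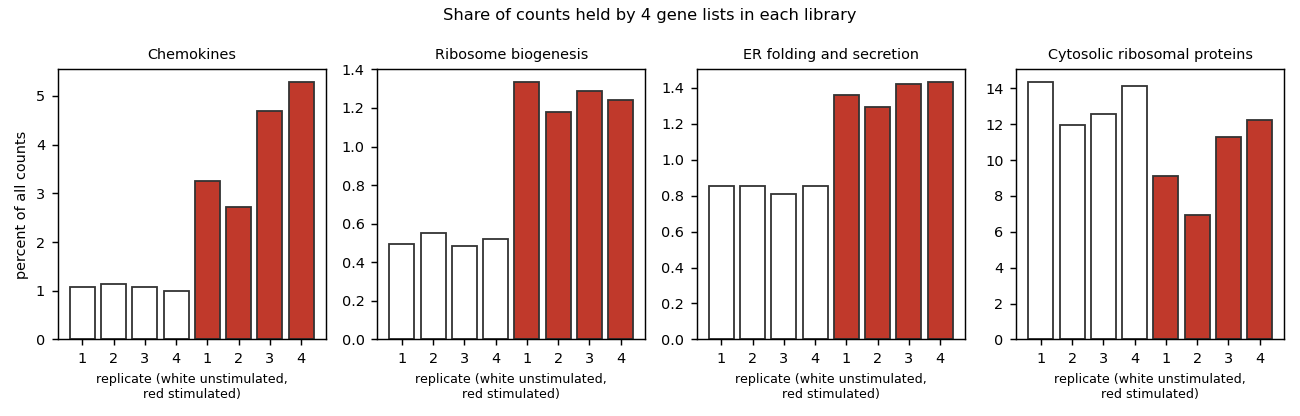
Share of all counts held by 4 gene lists in each of the 8 libraries, one panel per list with the axis starting at 0, unstimulated replicates 1 to 4 on the left and stimulated replicates 1 to 4 on the right. Chemokine and ribosome biogenesis shares are higher in every stimulated library, while ribosomal protein transcripts are lowest in stimulated replicates 1 and 2.

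Many genes of translation factors and of amino acid supply rose. Of 50 initiation and elongation genes 30 rose and 4 fell. Without stimulated replicate 2, 2 fell. The eIF2 beta subunit gene Eif2s2 rose by 1.38 ± 0.11 and the scanning factor gene Eif1a by 1.47 ± 0.13. Of 19 tested aminoacyl-tRNA synthetase genes 17 rose and none fell (median 1.14), for example Nars from 254, 292, 294 and 287 CPM to 801, 759, 976 and 855 CPM (1.59 ± 0.12) and Iars by 1.99 ± 0.17. Atf4, the transcription factor of the amino acid response, went from 109, 111, 112 and 93.04 CPM to 289, 248, 348 and 339.5 CPM (1.52 ± 0.11). In its list 23 of 31 rose, among them the amino acid transporters Slc7a1 (2.22 ± 0.20), Slc7a5 (2.06 ± 0.23) and Slc1a5 (1.53 ± 0.14) and the one-carbon enzyme gene Mthfd2 (1.69 ± 0.15). The single member that fell was Ddit4, an inhibitor of mTORC1 (−1.15 ± 0.24).

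Genes of protein folding in the endoplasmic reticulum leaned higher at the RNA level, with 32 of 54 called higher. The member called lower was Eif2ak3, which encodes the stress kinase PERK (−0.82 ± 0.23). Without stimulated replicates 3 and 4, 7 were lower and 24 higher, and without replicates 1 and 2, 2 were lower and 42 higher. Hspa5, the chaperone BiP, stood at 562, 638, 553 and 552 CPM unstimulated and at 2886, 2757, 2724 and 2662 CPM stimulated (2.26 ± 0.14, adjusted p = 1.07e-21). The stimulated values differed from each other by far less than from the unstimulated ones. Hyou1, a nucleotide exchange factor for BiP, rose from 19.4 ± 2.91 to 98.03 ± 17.7 CPM (2.33 ± 0.23), Calr (calreticulin) from 322 ± 13.5 to 894 ± 116 CPM (1.47 ± 0.19) and Creld2 by 1.12 ± 0.18. The list took 0.853, 0.855, 0.810 and 0.855 percent of counts unstimulated and 1.36, 1.29, 1.42 and 1.43 percent stimulated. Of the cytosolic heat shock list 23 of 34 rose, for example Hsp90aa1 (1.81 ± 0.18) and the chaperonin gene Cct3 (1.14 ± 0.11).

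The endoplasmic reticulum stress response element, CCAAT followed by any 9 bases and CCACG, is read by ATF6 and XBP1 together with NF-Y. It was rare, in 0.130% of all promoters on either strand, and was found in 8 of 1834 matched genes that rose, in 0 of 1622 that fell and in 3 of 4553 not called. Of the endoplasmic reticulum list, 8 of 42 matched genes held it. A run of 100 bases upstream of the start, 5′ to 3′ on the gene's strand and with the element in capitals, is given for 3 of them that rose. In Hspa5 it reads forward, and in Calr and Creld2 it lies on the other strand.
Hspa5, chr2:34771984-34772083, plus strand: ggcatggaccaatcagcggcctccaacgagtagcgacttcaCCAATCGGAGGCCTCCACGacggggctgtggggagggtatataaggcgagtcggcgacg
Calr, chr8:84847035-84847134, minus strand: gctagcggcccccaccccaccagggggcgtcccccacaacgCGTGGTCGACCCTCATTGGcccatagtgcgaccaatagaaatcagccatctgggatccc
Creld2, chr15:88819479-88819578, plus strand: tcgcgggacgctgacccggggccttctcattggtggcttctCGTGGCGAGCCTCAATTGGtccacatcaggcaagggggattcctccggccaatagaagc

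The proteasome list was mostly not called (31 of 48), with 12 higher and 5 lower. The subunits of the immunoproteasome, which interferon-gamma induces for antigen processing, were lower: Psmb8 from 429, 349, 286 and 448 CPM to 185, 128, 193 and 219.6 CPM (−1.06 ± 0.16), Psmb9 (−1.27 ± 0.17) and Psmb10 (−0.67 ± 0.13). Psme3, the activator of nuclear proteasomes, rose (1.25 ± 0.16). The count of lower members was 3 without stimulated replicate 1, stimulated replicate 2 or unstimulated replicate 1, and 13 without stimulated replicates 3 and 4. The count of higher members was 18 without stimulated replicates 1 and 2 and 8 without replicates 3 and 4. In the list for presentation by MHC class I, 2 of 19 rose and 6 fell. With library size as the only scaling 10 fell. Of 36 tested interferon-stimulated genes, a list not limited to targets of interferon-gamma, 26 were not called at 4 hours. Of all genes tested, 6215 of 10723 were not called. In the list 8 were lower (22.2%, near the 19.1% of all genes), such as Slfn2 (−0.77 ± 0.13), and 2 higher (5.56%, against 23.0%). Ifih1, the RNA sensor MDA5, rose by 2.09 ± 0.33. Iigp1 was also called higher (2.13 ± 0.84), with stimulated values of 21.3, 157, 51.2 and 11.7 CPM; without stimulated replicate 2 its change was 0.96, adjusted p = 0.456. The call was also lost without unstimulated replicate 1, 3 or 4.

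Metabolic genes moved both ways. Slc16a1, the lactate transporter MCT1, rose from 13.1, 11.96, 13.3 and 12.5 CPM to 127, 81.99, 64.03 and 72.4 CPM (2.76 ± 0.25), Hk2, the first enzyme of glycolysis, from 26.9, 31.9, 41.9 and 29.1 CPM to 151, 84.9, 177 and 150.3 CPM (2.12 ± 0.26), and Pfkfb3, which raises the activator of phosphofructokinase, by 1.98 ± 0.24. Txnip, which restrains glucose uptake, fell (−1.38 ± 0.19), and without stimulated replicates 1 and 2 its change was −1.98. Over the glycolysis list 6 of 31 rose (19.4%, against 23.0% of all genes) and 8 fell (25.8%, against 19.1%). The enzyme gene Gpi1 was among those that fell (−0.48 ± 0.14). The lower count was 4 without stimulated replicate 2, unstimulated replicate 1 or unstimulated replicate 4. Nuclear respiratory chain genes were called lower in 10 of 51 (19.6%, near the 19.1% of all genes) and higher in 3 (5.88%, against 23.0%). Cycs (cytochrome c) was among those higher (0.99 ± 0.17). The median of the list was −0.29, with 46 members below 0 and 5 above. The count of lower genes too depended on the libraries kept. It was 1 without stimulated replicates 1 and 2 and 41 without replicates 3 and 4. Without any single stimulated replicate it was between 3 and 25, and without unstimulated replicate 1 it was 5. Fasn (fatty acid synthase) rose by 1.27 ± 0.18, while Mvk, an enzyme of the sterol route, fell (−1.99 ± 0.43). Of the 34 sterol and fatty acid genes 7 rose and 12 fell, or 7 without stimulated replicates 3 and 4.

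Cell cycle genes leaned lower, 22 of 53 against 3 higher. Genes of the regulators of entry from G1 moved both ways. Ccnd2 (cyclin D2) rose from 647, 796, 728 and 708 CPM to 3106, 2874, 3382 and 3121 CPM (2.12 ± 0.13) and Ccnd3 (cyclin D3) fell from 149, 137, 111 and 142 CPM to 57.9, 62.6, 56.7 and 45.9 CPM (−1.27 ± 0.17). Of the inhibitors of cyclin-dependent kinases, Cdkn1a (p21) rose from 84.3, 84.5, 74.3 and 86.4 CPM to 236, 261, 466 and 506 CPM (2.15 ± 0.20), whereas Cdkn1b (p27) fell from 197, 200.2, 225 and 194 CPM to 78.4, 70.5, 42.1 and 56.1 CPM (−1.71 ± 0.13), Cdkn2c (p18) (−1.73 ± 0.30) and Cdkn2d (p19) (−1.78 ± 0.24). The proliferation marker Mki67 was not called (−0.29 ± 0.24), and its stimulated values were 691, 387, 251 and 302 CPM against 618, 391, 535 and 445 CPM. Without stimulated replicate 1 it was called lower (−0.68, adjusted p = 0.0191). A replicate block over all libraries also called Mki67 lower, with values given in the section on processing. The chromatin protein gene Hmgb2 fell from 3458, 2077, 2508 and 3188 CPM to 874, 549, 1593 and 1751 CPM (−1.24 ± 0.35), and −0.76, adjusted p = 0.158 without stimulated replicates 1 and 2. Without replicates 3 and 4 it was −1.98.

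Of the BCL2 and cell death list 12 of 27 rose and 3 fell. Bcl2l1, which encodes the survival protein Bcl-xL, rose from 33.4, 25.5, 23.8 and 33.2 CPM to 118, 82.7, 128 and 134 CPM (1.98 ± 0.19), and Bcl2a1d, an NF-kB target with near-identical copies, by 2.04 ± 0.27. The killer genes Bad (−1.55 ± 0.29) and Bbc3, which encodes Puma (−0.91 ± 0.22), fell. Bcl2 and Mcl1, on which NK survival depends, were not called (0.31 ± 0.19 and 0.13 ± 0.12). A replicate block over all libraries called Bcl2 higher, with values given in the section on processing. Without stimulated replicates 3 and 4, 5 fell.

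In the list of RNA decay factors and microRNA hosts 13 of 24 rose and 2 fell, or 4 with library size as the only scaling. Zc3h12c, an endonuclease of the regnase family, went from 2.18, 3.99, 2.86 and 2.49 CPM to 30.5, 33.1, 37.5 and 43.6 CPM (3.61 ± 0.35). Of the tristetraprolin relatives that bind AU-rich elements, Zfp36l1 rose (156 ± 27.7 against 530.2 ± 54.2 CPM, 1.77 ± 0.19) and Zfp36l2 fell (−1.005 ± 0.21). The change of Zfp36l2 was −1.70 without stimulated replicates 1 and 2. Mir155hg, the host transcript of miR-155 (chromosome 16, 84703167 to 84715245, GRCm38), went from 9.45, 23.9, 20.01 and 10.8 CPM to 115, 153, 193 and 161 CPM (3.28 ± 0.23, adjusted p = 1.19e-18). Mir17hg, the host of the miR-17 cluster, went from 1.45, 3.99, 2.86 and 2.49 CPM to 12.2, 11.5, 12.8 and 6.23 CPM (1.96 ± 0.43). The mature microRNAs were not measured here. Their sequences (RefSeq, GRCm38.p6) are given for the arms usually named as active, with bases 2 to 8, the seed that pairs with targets, in capitals. In the miR-17 cluster miR-17-5p and miR-20a-5p share 1 seed and miR-19a-3p and miR-19b-3p another, while miR-155-5p has a seed of its own.
miR-155-5p, chr16:84714143-84714165, plus strand: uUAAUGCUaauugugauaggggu
miR-17-5p, chr14:115043684-115043706, plus strand: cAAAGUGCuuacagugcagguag
miR-20a-5p, chr14:115044183-115044205, plus strand: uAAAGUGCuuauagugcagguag
miR-19a-3p, chr14:115044048-115044070, plus strand: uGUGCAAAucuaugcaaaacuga
miR-19b-3p, chr14:115044358-115044380, plus strand: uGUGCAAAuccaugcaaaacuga
miR-92a-3p, chr14:115044476-115044496, plus strand: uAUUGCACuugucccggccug

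The genes of the receptors by which NK cells sense prostaglandin E2, the agent of the wider study, rose in cells to which none had been added. Prostaglandin in the cultures was not measured. Ptgs2, which encodes the prostaglandin synthase COX-2, was at 0.727, 0.798, 0 and 0 CPM and then 0.762, 10.1, 3.66 and 1.56 CPM (3.04 ± 1.09), a call on few counts. It was lost without stimulated replicate 2 (1.97, adjusted p = 0.235), without unstimulated replicate 3 or 4 and with limma-voom. Ptger2, which encodes EP2 (chromosome 14, 44988195 to 45003820, GRCm38), went from 7.27, 5.58, 3.81 and 3.32 CPM to 18.3, 16.5, 29.3 and 36.6 CPM (2.28 ± 0.30), and Ptger4, which encodes EP4 (chromosome 15, 5206661 to 5244187, GRCm38), from 14.5, 29.5, 21.9 and 24.9 CPM to 51.8, 81.3, 53.05 and 63.9 CPM (1.47 ± 0.20). Both receptors signal through cyclic AMP. Of the components downstream, the kinase subunit genes Prkacb (−1.07 ± 0.14) and Prkaca (−1.33 ± 0.22) and the adenylate cyclase gene Adcy7 (−1.43 ± 0.22) fell, while the kinase's regulatory subunit gene Prkar2a (1.005 ± 0.17) and the transcription factor gene Atf1 (0.69 ± 0.17) rose. Without stimulated replicates 1 and 2 the change of Atf1 was 0.46, adjusted p = 0.0696. Over the list 8 of 32 rose and 9 fell. The number that rose was 5 without stimulated replicate 2 or unstimulated replicate 3. Regulators of G protein signalling split, with Rgs16 (86.5, 90.9, 69.5 and 70.6 CPM against 318, 332, 473 and 615 CPM, 2.45 ± 0.18) and Rgs1 (1.60 ± 0.15) higher and Rgs10 (−1.78 ± 0.19), the G protein gene Gna15 (−2.44 ± 0.26) and the arrestin gene Arrb2 (−1.47 ± 0.17) lower. That list had 7 of 22 higher, or 4 without stimulated replicate 1 or 2 or unstimulated replicate 1, and 11 lower.

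Several large changes lay outside these lists. Among risers with no overlap between groups were Sema7a, a membrane semaphorin (3.28 ± 0.38), the kinase gene Plk2 (3.24 ± 0.27), Tagap (3.12 ± 0.17) and the transcription factor gene Zbtb46 (3.08 ± 0.33). Among such falls were the ubiquitin ligase gene Rnf125 (−2.38 ± 0.18), Pik3ip1, an inhibitor of PI3-kinase (−2.12 ± 0.29), the glucocorticoid-induced gene Tsc22d3 (−2.02 ± 0.28), Selenop (−2.22 ± 0.27) and Ypel3 (−2.10 ± 0.19). In 7 genes 1 group had at most 3 counts in all and each library of the other group at least 5. Cdh23, a cadherin, had 0, 0, 0 and 0 counts in unstimulated replicates 1 to 4 and 12, 6, 7 and 9 in stimulated replicates 1 to 4, at least 10.9-fold higher over the group against a floor of 3 counts. Fam83g had 0, 1, 1 and 0 and 14, 18, 17 and 11 counts, a ratio of 28.8 with a 95% exact interval for counting error of 7.64 to 244. Cxcl2, a neutrophil chemokine, had 3, 0, 0 and 0 and 7, 6, 7 and 6 counts (ratio 8.33, interval 2.55 to 43.00). Aqp3, a water and glycerol channel, was the gene that went the other way, from 12, 13, 6 and 6 to 1, 1, 0 and 0 counts (ratio of unstimulated to stimulated 19.2, interval 4.97 to 165).

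The same stimulation in EP2KO cells and in DKO cells called 3575 and 3242 genes. These groups share no library with the WT contrast. Of the 4508 genes called in WT, 97.8% had the same sign in EP2KO and 97.6% in DKO. Fewer of them, 64.5% in EP2KO and 59.5% in DKO, were also called there in the same direction. Across the 10723 genes, which are not independent replicates, the log2 changes had a Pearson r of 0.838 between WT and EP2KO and of 0.827 between WT and DKO. Ifng rose by 3.07 ± 0.20 in EP2KO and 3.09 ± 0.23 in DKO, Rel by 2.62 ± 0.14 and 2.48 ± 0.16, and Hspa5 by 2.03 ± 0.13 and 2.28 ± 0.16. Ifngr1 changed by −2.28 ± 0.15 and −2.30 ± 0.17, and Klrb1c (−1.54 ± 0.14) and −1.21 ± 0.16. The difference of the response between EP2KO and WT was called for 0 genes (0% of those tested) by edgeR's interaction test and by DESeq2, with 460 genes at an unadjusted p under 0.05. Between DKO and WT it was called for 1 gene (0.00933%), Etv5, which was named after its values were seen, with 378 at an unadjusted p under 0.05. Etv5, an ETS factor, stood at 2.91, 3.99, 2.86 and 1.66 CPM and 3.05, 3.60, 3.66 and 3.89 CPM in WT, and its difference was −5.98 ± 1.18 (adjusted p = 0.0403). DESeq2 called none, and the call was lost when any 1 of the 14 libraries other than unstimulated WT replicate 2 was left out. For Ifng the difference was −0.05 ± 0.26 for EP2KO and −0.02 ± 0.28 for DKO, and for Ccl3 −0.15 ± 0.34 and 0.13 ± 0.36. The DKO libraries also differ from the WT ones in sex: the Y-linked gene Ddx3y ran from 51.2 to 128 CPM in the 6 untreated DKO libraries and from 0 to 3.81 CPM in the 8 WT ones, so genotype and sex cannot be told apart in that comparison.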

How the data were processed

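RNA from 64 libraries in 18 groups was sequenced as 3′ tags with unique molecular identifiers, per the labels' protocols. The deposited table holds whole-number counts per gene for all libraries; whether they are reads or molecules is not given in the sources used here. GRCm38 (mm10) and DESeq2 are named in the submitters' processing notes, and the aligner is not given. The count test was edgeR 4.0.16 in R 4.3.3: genes passing filterByExpr (minimum count 10), TMM factors, and a robust quasi-likelihood fit over all 64 libraries with 1 mean per group, which shares the estimate of spread. P-values were adjusted by Benjamini-Hochberg over 10723 genes, with calls under 0.05. Genotype differences were interaction contrasts of the same fit. CPM values use the same factors. Alternatives were DESeq2 1.42.0, limma 3.58.1, other scalings and filters, replicate blocks, the 8 libraries alone and libraries left out. Counts for 10723 genes were simulated for all 64 libraries, with 67 genes changed 1.5-fold, 67 2-fold and 66 4-fold between 4 and 4 libraries. The test recovered 10.4%, 46.3% and 84.8% of these, with 2 false calls. Far fewer genes were changed than the 4508 called in the data. Simulated libraries were independent, without the pairs seen among stimulated replicates. These rates therefore do not give the recovery or the false calls of the real contrast. Library totals of 1026568 to 1465590 counts mean that genes near 1 CPM rest on single counts. No 2 of the 8 libraries held identical counts.

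Members and gene lists were chosen with earlier results of these data known, so list counts are descriptions. Named genes are the large changes in level or fold with no overlap between groups, up to 6 called members per list and direction by p and up to 3 uncalled ones by level, genes near 0 counts in 1 group, and a set of well-known response genes. Calr, Creld2, Fcer1g, Mir17hg, Relb, Tnfaip3 and Etv5 fell outside that rule and were chosen after their values were seen. Promoter and microRNA sequences are RefSeq's for GRCm38.p6, with 8009 tested genes matched to a promoter. Exact permutation tests of library measures were two-sided. Some genes of the lists are not reported here.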

Additional observations from a re-analysis of the deposited data

Results flagged for a closer look

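Among the 4-library groups of named genes and library measures, 502 were examined for a library far from the other 3, and 22 (4.38%) were found, where chance alone gives about 1 in 20. Among stimulated libraries, replicate 4 was low for Calr at 721 CPM and high for Csf2 at 143 CPM, for Areg at 34.3 CPM and for Flt3l at 17.9 CPM. Stimulated replicate 2 was high for Cxcl9 at 98.5 CPM and for Dusp6 at 59.7 CPM.

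Among unstimulated libraries, replicate 1 was low for Ctsc (125 CPM), Flt3l (40.0 CPM), Il21r (21.8 CPM) and Il2rb (796 CPM) and high for Cxcl2 (2.18 CPM, the rest at 0). Replicate 2 was high for Ddx21 (307 CPM) and Hspa5 (638 CPM) and low for Prkaca (48.6 CPM). Its macrophage and dendritic cell marker share was high, at 0.0281% of counts. Replicate 3 was low for Plk2 (1.91 CPM), for Prkar2a (35.3 CPM) and for the share of endoplasmic reticulum folding genes (0.810% of counts). Replicate 4 was low for Ccl1 (679 CPM), Irf4 (14.1 CPM) and Kit (189 CPM) and high for Tfrc (64.8 CPM).

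The response of Etv5 differed between DKO and WT cells by −5.98 on the log2 scale (adjusted p = 0.0403, edgeR's interaction test). It was the single gene called in that test and is expressed near the detection limit.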

How the results depend on the processing

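The 4508 calls became 4294 with DESeq2, 4500 with RLE size factors, 4664 with library size alone, 4444 with limma-voom, 3871 with a stricter filter, 3811 without a filter and 3673 in a fit of the 8 libraries alone. A threshold of at least 2-fold left 1942 calls, 1102 higher and 840 lower. Leaving out 1 library gave 3811 to 4514. In 2 alternatives chosen after seeing the data, there were 3449 calls without stimulated replicates 1 and 2 and 4578 without replicates 3 and 4. In none of these was a shared call opposite in direction. Same-numbered WT libraries correlated at −0.01, 0.32, −0.12 and 0.26 in their deviations, and only stimulated replicates 2 and 4 correlated best with their own number, so the number was not taken as a pairing in WT cells. In EP2KO cells the correlations were 0.18, −0.0034, 0.28 and 0.28, and in DKO cells 0.17, 0.22 and 0.21. In these genotypes every stimulated library except EP2KO replicate 2 correlated best with its own number. In all genotypes, WT included, the level of some basophil and mast cell genes followed the number, as given under the other observations. Whether same-numbered libraries share a source was not tested, and the main fit takes them as separate. A replicate block gave 5288 calls over all libraries, which included all 4508, and 4066 over the 8 alone. With the block over all libraries, 45 cytosolic ribosomal protein genes were lower, against 3 without it and 12 with it in the 8 alone. Nuclear respiratory chain genes lower were 30, against 10 and 11, and lectin receptor genes 17, against 11 and 11. The block also gave calls of Ccl5 (−0.39, adjusted p = 0.000733), Bcl2 (0.31, adjusted p = 0.0178) and Mki67 (−0.35, adjusted p = 0.0383). The EP2KO and WT responses differed in 0 genes with DESeq2, the other scalings and filters, 1 library left out and the replicate block, and limma-voom was not run for the genotype differences. The DKO difference was 1 gene with the replicate block, RLE factors or library size alone and 0 with DESeq2, the stricter filter or no filter, and 0 to 1 with 1 library left out. Of 4358 comparisons of named genes, 4274 kept direction and call, 56 lost the call, 8 gained one and 20 changed sign. The sign changes were in genes that were not called. Mki67 went to 0.11 and Cyld to 0.051 without stimulated replicates 3 and 4. Klrb1f went to −0.34 without stimulated replicates 1 and 2, −0.064 with library size alone, −0.0061 in the 8 libraries with a block, and −0.15 to 0.15 with 1 library left out. Rela went to −0.15 without those, −0.12 with library size alone, −0.0091 with the stricter filter, −0.0060 without a filter, −0.0011 with the replicate block, −0.013 in the 8 libraries alone, −0.018 there with a block, and −0.073 to 0.078 with 1 library left out. The causes were not tested. Of 1824 list counts, 145 moved by over 1.5 times. Genes near 1 CPM rest on single counts, and depth was not varied.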

Other observations

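Of 13 tested marker genes of other innate lymphoid cells, which share many genes with NK cells, 9 fell and 1 rose (median −1.12). Cxcr6, a chemokine receptor of tissue-resident lymphocytes, changed by −1.12 ± 0.27 and Tmem176a by −1.20 ± 0.31, while Areg (amphiregulin) rose by 2.40 ± 0.45, or 3.07 without unstimulated replicate 1. Without stimulated replicates 3 and 4, 5 of them fell. One library trait followed the replicate number rather than stimulation. The summed level of 6 basophil and mast cell genes (Mcpt8, Cpa3, Fcer1a, Ms4a2, Gata2 and Mpo, chosen after their values were seen) ran from 257 to 370 CPM in WT replicate 1, from 726 to 956 CPM in replicate 2, from 615 to 831 CPM in replicate 3 and from 299 to 369 CPM in replicate 4, over 5 or 6 conditions each. In EP2KO cells the range was 980.5 to 1370.5 CPM in replicate 1, 932 to 1373 CPM in replicate 2, 399 to 561 CPM in replicate 3 and 3582 to 5392 CPM in replicate 4. In DKO cells it was 182 to 304 CPM in replicate 1, 1025 to 1898 CPM in replicate 2 and 341 to 492 CPM in replicate 3. None of the 10 tested neutrophil and mast cell markers was called with stimulation in WT cells by edgeR, while a replicate block, over all libraries or the 8 alone, gave 1 higher and 1 lower.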
